A study of Mus musculus with 10 samples.

Results

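The Hox genes named in a list of 33 were followed across 10 Affymetrix arrays of mouse fibroblastic cells. A gene was measured when a probe set (a group of short probes read as 1 value) carried its symbol alone, and where there were several, the one brightest on average across the 10 arrays stood for it. That gave 29 Hox genes out of 18194 genes in all. They were 9 genes of the HoxA cluster, 7 of HoxB, 7 of HoxC and 6 of HoxD, and 11 of them had more than 1 probe set. Hoxa6, Hoxb8, Hoxc11 and Hoxd4 had no probe set of their own and were not analysed here. Probe sets shared by Hoxb7 and Hoxb8, or by Hoxd3 and Hoxd4, were not used.

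Hox genes encode homeodomain transcription factors that give cells their place along the head-to-tail axis and along the limb. They lie in 4 clusters, HoxA to HoxD, and genes of the same number in different clusters are paralogues. Genes at the low-numbered end of a cluster are used early and far forward, and those at the high-numbered end late and toward the tail or the limb tip. Fibroblasts keep part of the Hox pattern of their site of origin in culture, so the set of Hox genes that a fibroblast line expresses is often read as its positional code. Polycomb proteins hold silent Hox genes closed, Trithorax proteins keep active ones open, retinoic acid and Cdx factors set their early limits, and Pbx, Meis and Pknox proteins bind DNA together with them.

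The series asked what Med23, a subunit of the Mediator complex that joins transcription factors to RNA polymerase II, does in cells that can become smooth muscle or fat. Embryonic fibroblasts (MEFs), taken from embryos of 9.5 days and self-immortalized in culture, were wild type (WT) or knockout (KO) for Med23, and each genotype was measured at 3 serum times, 0 min (no serum), 30 min and 90 min. Cells of 10T1/2, an established mouse embryonic line with fibroblast character, were measured as a control, with overexpression of MAL (a coactivator of the serum response factor SRF), with Med23 knockdown, and with both. Both kinds of cell were kept in DMEM with 10% FBS. Each condition had 1 array, so spread was taken from differences among arrays that a sum of line, serum and treatment effects left over. The WT line and the KO line differ in derivation as well as in Med23. The labels name no further line of either genotype, so genotype and line cannot be told apart.

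Values were log2 expression as deposited, with array medians of 3.86 to 3.93 in the MEFs and 3.64 to 3.70 in 10T1/2. Med23 itself was at 7.14, 7.39 and 6.90 in WT cells and at 3.30, 3.30 and 2.91 in KO cells at 0, 30 and 90 min, at least 9.54-fold lower (limma, adjusted p = 9.22e-06). In 10T1/2 it was at 5.45 in the control, 5.67 with MAL, 4.24 with knockdown and 3.94 with both. Of 13 fibroblast markers, 11 in WT, 11 in KO and 12 in 10T1/2 were above the array median on every array of the line, and their mean per array was 9.83 to 10.1 in WT, 9.22 to 9.52 in KO and 9.96 to 10.5 in 10T1/2. Of 8 epithelial markers only Epcam was above it in each line, of 7 endothelial markers 1, 1 and 0, of 7 macrophage markers 2, 1 and 2, of 6 skeletal muscle markers 2, 1 and 2, of 6 pluripotent and germ markers 1, 1 and 1, of 5 bone and cartilage markers 2, 2 and 2, and of 7 neural and neural crest markers 3, 2 and 3. The neural and neural crest mean was 4.70 to 4.90 in WT, 4.07 to 4.17 in KO and 4.11 to 4.28 in 10T1/2. Both marker means were thus lower on all KO arrays than on all WT arrays, and their part in the Hox differences was not tested. In bulk RNA, fewer cells expressing a gene and less of its RNA per cell cannot be told apart.

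The DNA just upstream of a Hox start site is shown for 4 genes with large differences between the 3 lines, Hoxd8 and Hoxd9 in KO MEFs and Hoxa2 and Hoxa7 in 10T1/2. Each window holds the 250 bases before the start in RefSeq (GRCm38.p6), 5′ to 3′ on the gene's own strand. Capitals mark matches on either strand, with overlaps allowed. The motifs searched were TATAAA, known as the sequence bound by the basal initiation factor, and CCAAT, read by nuclear factor Y. They also included GGGCGG, which members of the Sp family bind, and AGGTCA, the half-site of retinoid receptors. Hox proteins were represented by TGATTNAT, bound jointly with Pbx partners, and by TTTATNG, preferred among the posterior paralogues. The CArG box, which SRF binds, completed the search.
Hoxd8, chr2:74704365-74704614, plus strand: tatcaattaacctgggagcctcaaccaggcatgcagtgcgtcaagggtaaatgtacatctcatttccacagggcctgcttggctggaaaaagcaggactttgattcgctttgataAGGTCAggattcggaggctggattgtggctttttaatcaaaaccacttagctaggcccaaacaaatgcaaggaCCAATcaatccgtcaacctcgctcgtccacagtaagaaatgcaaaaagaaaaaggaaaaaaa
Hoxd9, chr2:74697513-74697762, plus strand: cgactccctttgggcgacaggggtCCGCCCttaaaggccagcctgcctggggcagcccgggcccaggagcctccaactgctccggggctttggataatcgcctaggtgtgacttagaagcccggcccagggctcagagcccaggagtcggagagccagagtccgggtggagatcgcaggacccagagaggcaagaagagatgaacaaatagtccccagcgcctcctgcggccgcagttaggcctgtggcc
Hoxa2, chr6:52164832-52165081, minus strand: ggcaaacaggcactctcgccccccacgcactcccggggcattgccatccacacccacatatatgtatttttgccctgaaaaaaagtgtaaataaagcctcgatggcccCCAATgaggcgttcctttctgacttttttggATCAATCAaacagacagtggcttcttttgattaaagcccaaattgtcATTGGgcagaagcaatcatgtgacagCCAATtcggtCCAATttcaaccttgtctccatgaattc
Hoxa7, chr6:52218574-52218823, minus strand: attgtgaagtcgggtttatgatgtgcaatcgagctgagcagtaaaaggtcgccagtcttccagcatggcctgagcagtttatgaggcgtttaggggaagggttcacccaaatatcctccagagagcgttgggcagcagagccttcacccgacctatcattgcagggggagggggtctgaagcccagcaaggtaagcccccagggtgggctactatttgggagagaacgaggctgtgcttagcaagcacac
The Hoxd8 window held 1 CCAAT and 1 AGGTCA, the Hoxd9 window 1 GGGCGG on the other strand, and the Hoxa2 window CCAAT at 4 places and TGATTNAT on the other strand. None of these letters matched in the Hoxa7 window. Windows were at hand for 19 of the 33 listed genes, 21 windows in all. CCAAT was found in 11 of the 21 against 33.8% of 32851 windows of all genes, GGGCGG in 9 against 32.7%, AGGTCA in 6 against 14.0%, TATAAA in 4 against 12.4%, TGATTNAT in 2 against 2.82%, TTTATNG in 2 against 9.81% and the CArG box in 0 against 1.47%. The median number of CG dinucleotides was 13 in the Hox windows and 6 in all windows, and the Hoxd8, Hoxd9, Hoxa2 and Hoxa7 windows held 6, 13, 6 and 7. A match describes the letters only, and binding was not measured.

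By the chosen probe sets, the 3 lines shared a small Hox code of 3 central and 2 posterior genes. To it, 10T1/2 added Hoxa2, Hoxa3, Hoxa4 and Hoxa10 of HoxA and 1 HoxB gene. Hoxa11 and Hoxa13, at the back of HoxA, were below the array median on every 10T1/2 array. A member was counted in the code of a line when it exceeded the array median (over all probe sets) on each array of that line, a stated level and not a detection limit. By this rule the code held 5 of the 29 genes in WT MEFs (17.2%), 6 in KO MEFs (20.7%) and 11 in 10T1/2 (37.9%), while 55.9%, 55.6% and 59.4% of all genes passed it. Hoxa5, Hoxa7, Hoxa9, Hoxc9 and Hoxd8 passed in all 3 lines. For Hoxa5, Hoxa9 and Hoxd8 this rested on the chosen probe set. By its other probe set, Hoxa5 was below the median on every WT array and Hoxd8 on every 10T1/2 array. Hoxa9 was below it by its other probe set on every WT and every 10T1/2 array. Hoxa4 and Hoxa10, which passed only in 10T1/2, were below it by their other probe sets on every array. Hoxd9 passed in KO MEFs and 10T1/2, and Hoxa2, Hoxa3, Hoxa4, Hoxa10 and Hoxb9 in 10T1/2 only. Some of these genes missed narrowly on a single array. In WT cells Hoxd9 fell short only at 30 min (3.87 against a median of 3.88). In KO cells Hoxa3 and Hoxa10 fell short only at 90 min (3.88 and 3.87 against 3.9). With the level set 1 log2 unit above the median, the WT code shrank to Hoxa5 alone, the KO code to Hoxa5, Hoxa7, Hoxd8 and Hoxd9, and the 10T1/2 code to Hoxa2, Hoxa3, Hoxa5, Hoxa7, Hoxa9 and Hoxc9.

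By cluster, HoxA gave 3 of its 9 measured genes to the WT code, 3 to the KO code and 7 to the 10T1/2 code. HoxB gave 0, 0 and 1 of 7, HoxC 1, 1 and 1 of 7, and HoxD 1, 2 and 2 of 6. By position, paralogues 1 to 3 gave 0, 0 and 2 of 5 genes, paralogues 4 to 8 gave 3, 3 and 4 of 12, and paralogues 9 to 13 gave 2, 3 and 5 of 12. By the chosen probe sets the code of the MEF lines held no measured gene of paralogues 1 to 3 and none of HoxB. When any probe set of a gene could pass, the KO code held 7 genes, with Hoxa3 added through 1452421_at (4.12, 4.01 and 3.93, just above the medians), and the WT and 10T1/2 codes stayed at 5 and 11.

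**Figure D1:**
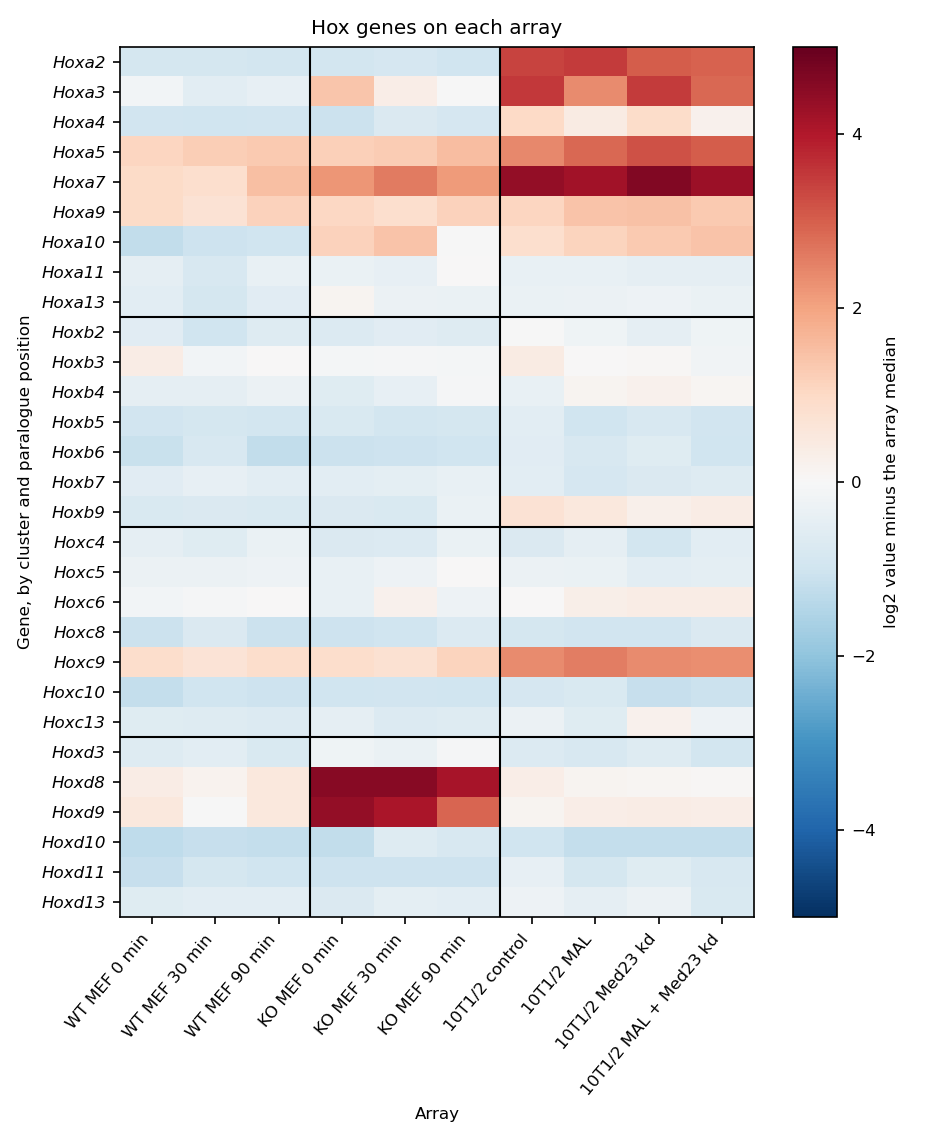
Log2 expression of the 29 measured Hox genes (rows, by cluster and paralogue number) on the 10 arrays (columns, by line and condition), with colour giving the level relative to the median of the array. Hoxd8 and Hoxd9 stand out on the 3 KO arrays and Hoxa2, Hoxa3 and Hoxa7 on the 4 arrays of 10T1/2, while most HoxB and HoxC rows stay near or below the median; colours of different rows are not a comparison between genes.

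The remaining 18 genes passed the rule in no line. Of these, 12 were at or below the median on all 10 arrays, between 2.44 and 3.9: Hoxb2, Hoxb5, Hoxb6, Hoxb7, Hoxc4, Hoxc5, Hoxc8, Hoxc10, Hoxd3, Hoxd10, Hoxd11 and Hoxd13. Of all genes, 27.9% lay there. The other 6, Hoxa11, Hoxa13, Hoxb3, Hoxb4, Hoxc6 and Hoxc13, were above the median on some arrays only. The genes of the limb tip and tail end, Hoxa13, Hoxc13 and Hoxd13, ranged over the 10 arrays from 3.02 to 4.05, from 3.11 to 3.91 and from 2.89 to 3.41.

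**Figure D2:**
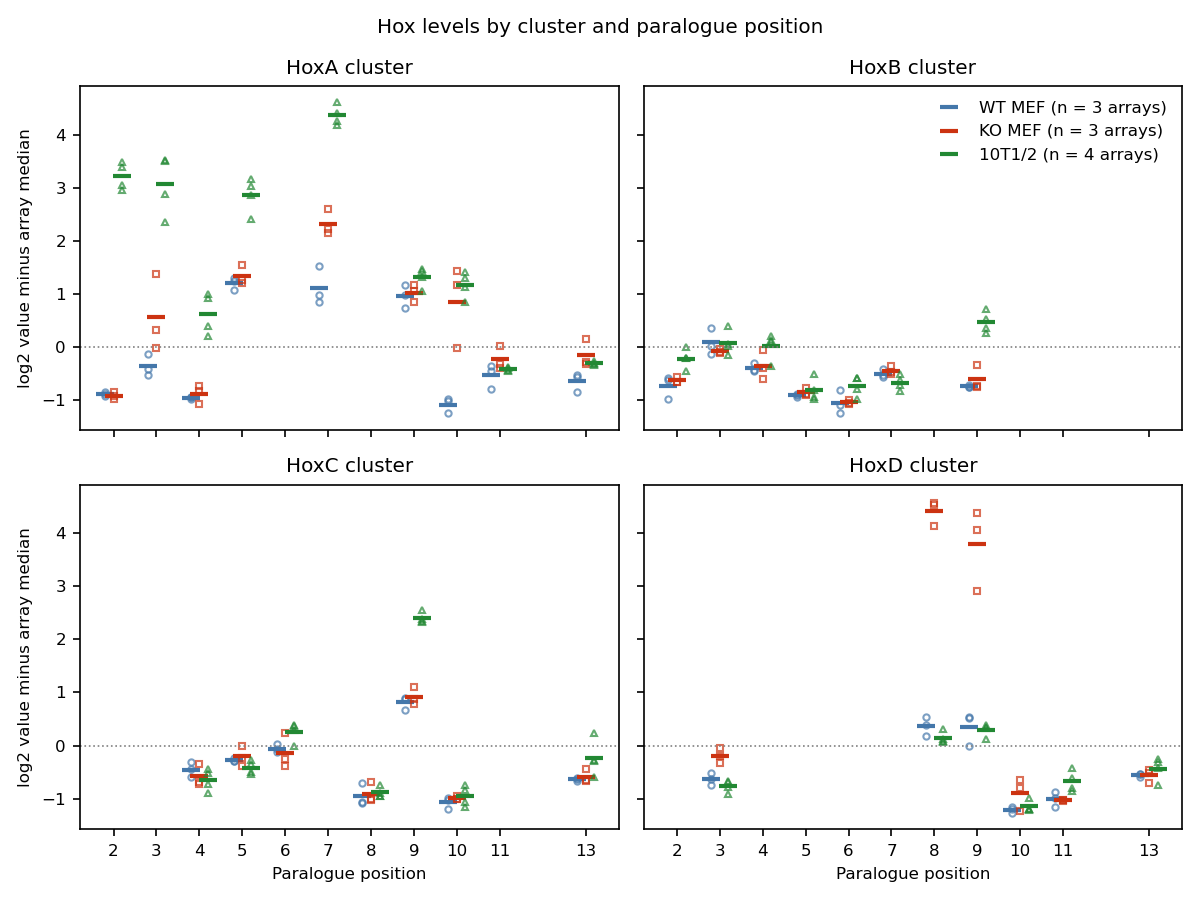
Log2 expression minus the array median against paralogue number in each of the 4 clusters, with an open point per array, a short bar at the mean of each line (3 WT, 3 KO and 4 10T1/2 arrays) and a dotted line at the median. The lines separate at the front of HoxA (Hoxa2 and Hoxa3 highest in 10T1/2) and at Hoxd8 and Hoxd9 (highest in KO); levels of different genes come from different probes and are not compared.

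Med23 knockout MEFs carried more Hoxd8, Hoxd9, Hoxa7, Hoxa10, Hoxa3 and Hoxa13 than WT MEFs. In an additive limma model of genotype and serum time over the 6 MEF arrays, 12 of the 29 Hox genes were tested (highest value above 3.90, the median over those arrays), 6 were higher in KO cells and 0 lower at an adjusted p under 0.05, while 21.2% of the 11934 genes tested were higher and 20.8% lower. The median coefficient was 0.38 over the 12 Hox genes and -0.02 over all genes tested. Hoxa3, Hoxa10, Hoxa11 and Hoxa13 passed the filter through KO arrays alone, and Hoxb3 through WT arrays alone. The direction of these genes, and with it the count and the median, was partly set by the filter. Over all 29 genes without a filter, every KO array was above every WT array for 7 (the 6 above and Hoxd3) and below for 0, against 14.7% and 15.5% of all genes.

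Among central genes, Hoxd8, which acts in trunk patterning, was at 4.32, 4.06 and 4.46 in WT cells and at 8.48, 8.40 and 8.03 in KO cells at 0, 30 and 90 min. All 3 KO arrays were far above all WT arrays, by 4.02 on the log2 scale (SE 0.18), a 16.3-fold difference (adjusted p = 2.75e-05). Its other probe set read 4.20, 4.05 and 4.29 in WT and 7.39, 7.40 and 7.04 in KO cells, a difference of 3.10. Hoxa7, another trunk gene, was at 4.90, 4.73 and 5.44 in WT and at 6.13, 6.46 and 6.04 in KO cells. The KO arrays were again all higher, by 1.19 (SE 0.22, 2.28-fold, adjusted p = 0.00724).

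Among posterior genes, Hoxd9, a neighbour of Hoxd8 used in the lumbar spine and upper limb, was at 4.47, 3.87 and 4.43 in WT and at 8.30, 7.93 and 6.82 in KO cells. The KO arrays were all higher, by 3.43 (SE 0.32), at least 10.7-fold when levels below the array median are raised to it (adjusted p = 0.000513). Hoxa10, needed for lumbar vertebrae and the uterus, was at 2.68, 2.85 and 2.93 in WT, below the median on every array, and at 5.07, 5.29 and 3.87 in KO cells. It was higher in KO cells by 1.92 (SE 0.30), at least 1.79-fold (adjusted p = 0.00394), with the 90 min KO array just below the median. Hoxa13, a gene of the digits and the hindgut, was at 3.40, 3.02 and 3.36 in WT and at 4.05, 3.57 and 3.57 in KO cells, and only 1 of the 6 arrays was above the median. Its call (0.47, SE 0.14, at least 1.02-fold, adjusted p = 0.0389) rested on levels near or below the median.

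At the front of HoxA, Hoxa3, which is needed for the thymus and parathyroids, was at 3.80, 3.34 and 3.50 in WT and at 5.29, 4.18 and 3.88 in KO cells. It was higher in KO cells by 0.90 (SE 0.22), at least 1.46-fold (adjusted p = 0.0187), with the difference largest at 0 min. For each of the 6 called genes the difference between the pair of arrays at 90 min was the smallest of the 3. The 6 tested genes that did not pass had coefficients of 0.28 for Hoxa11, 0.12 for Hoxa5, 0.09 for Hoxc9, 0.05 for Hoxa9, -0.10 for Hoxc6 and -0.18 for Hoxb3. Without the 30 min arrays only Hoxd8 and Hoxd9 were called, with adjusted p of 0.0501 for Hoxa10, 0.0576 for Hoxa7, 0.109 for Hoxa3 and 0.196 for Hoxa13. Without the 0 min arrays 4 were called, and Hoxa3 (0.61, adjusted p = 0.0999) was not among them.

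**Figure D3:**
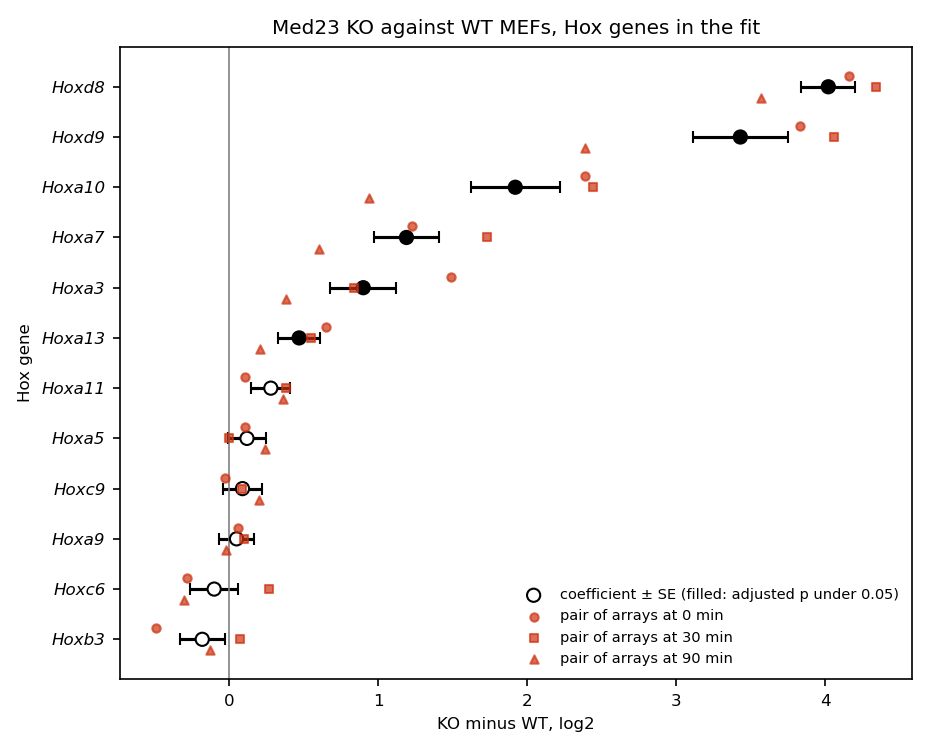
KO minus WT difference in log2 expression for the 12 tested Hox genes, with the limma coefficient and its SE (filled where the adjusted p is under 0.05) and a coloured point for the pair of arrays at each serum time. Hoxd8 (3.57 to 4.34) and Hoxd9 (2.39 to 4.06) stand apart, Hoxa10 (0.94 to 2.44) and Hoxa7 (0.60 to 1.73) follow, and in all 6 called genes the 90 min pair differs least.

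Probe sets of the same gene did not always read alike, and the difference bears on the HoxA code. On these arrays the suffixes _x_at and _s_at mark probe sets whose probes may match more than 1 transcript. For Hoxa5, a gene of the neck, lung and upper trunk, the chosen probe set 1443803_x_at read 5.01, 5.12 and 5.21 in WT and 5.12, 5.12 and 5.45 in KO cells. Probe set 1448926_at read 3.57, 3.46 and 3.54 in WT and 5.09, 5.46 and 4.26 in KO cells, so that by it all KO arrays were above all WT arrays, with a mean difference of 1.41 against 0.12. For Hoxa9, a gene of the trunk and of blood progenitors, the chosen 1421579_at read 4.90, 4.61 and 5.08 in WT and 4.96, 4.71 and 5.06 in KO cells. Probe set 1455626_at gave 3.25, 3.79 and 3.63 in WT and 4.82, 4.44 and 3.59 in KO cells, groups that overlap, with a mean difference of 0.73 against 0.05. The second probe set of Hoxa10, 1446408_at, lay between 2.81 and 3.18 on all 10 arrays, below the median, and differed by -0.02 between KO and WT.

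Hoxa3 had 4 probe sets. The mean KO minus WT difference was 0.90 for the chosen 1427433_s_at and 0.18 for 1452421_at, while 1429398_at and 1431392_at stayed between 2.86 and 3.63 on all arrays. With the mean of a gene's probe sets in place of the chosen one, Hoxa3 differed by 0.22 (adjusted p = 0.164) and was not called, Hoxa10 differed by 0.95 (adjusted p = 0.00931), and Hoxa5 was called higher in KO cells (0.77, adjusted p = 0.00778).

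By the chosen probe sets, Hoxa2, Hoxa3 and Hoxa7 showed the largest differences between 10T1/2 and WT MEFs, and all were higher in 10T1/2. The ranking depended on the probe set, since by 1448926_at Hoxa5 was higher by 3.74. With the mean of a gene's probe sets, Hoxa5 was higher by 2.58 and Hoxa3 by 1.32. The share of Hox genes that were higher was near that of all genes, so the count itself is no result about the Hox set. In a limma model over all 10 arrays, 19 of the 29 Hox genes were tested, of which 8 were higher and 3 lower in 10T1/2 than in WT MEFs, while 42.6% of 13035 genes were higher and 28.3% lower. The members' median coefficient was 0.17 and that of all genes 0.18. Of the 19, Hoxa2, Hoxa4, Hoxb9 and Hoxc13 passed the filter (highest value above 3.81) through 10T1/2 arrays alone, and Hoxa11, Hoxa13, Hoxc5 and Hoxd3 through KO arrays alone, so their direction was partly set by it. Against KO MEFs, 7 were higher and 6 lower, with 43.1% and 27.1% of all genes. The 8 were Hoxa2, Hoxa3, Hoxa4, Hoxa5, Hoxa7, Hoxa10, Hoxb9 and Hoxc9, and all but Hoxa10 were also higher than in KO MEFs. Every 10T1/2 array was above every WT array for 8 of the 29 genes and below for 5, against 24.9% and 26.0% of all genes, and above every KO array for 7 and below for 7, against 26.1% and 23.8%. Both comparisons use the same 4 arrays of 10T1/2, treated and untreated alike. The labels give serum times for the MEF arrays only, so line and serum state cannot be told apart in these comparisons.

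At the front end, Hoxa2, which specifies the second pharyngeal arch and the hindbrain, was at 7.04 in the 10T1/2 control, 7.19 with MAL, 6.72 with knockdown and 6.59 with both. It was at 3.07, 2.99 and 2.99 in WT and at 2.98, 3.01 and 2.91 in KO cells, below the median on every MEF array. The 10T1/2 arrays were all higher, by 3.87 over WT (SE 0.12, at least 7.86-fold, adjusted p = 2.62e-07) and by 3.92 over KO (at least 7.97-fold, adjusted p = 2.61e-07). Hoxa3 was at 7.18, 6.06, 7.19 and 6.52 in the same order of 10T1/2 conditions. These were above all MEF arrays, by 3.19 over WT (SE 0.20, at least 7.10-fold, adjusted p = 5.36e-06) and by 2.29 over KO (adjusted p = 3.1e-05). Its probe set 1452421_at, at 6.54, 5.91, 6.0 and 5.97, was also above every MEF array.

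In the central group, Hoxa4 was at 4.65, 4.10, 4.60 and 3.84 in 10T1/2, above the median there, and at 2.95 ± 0.05 (SD, n = 3) in WT and 3.0 ± 0.15 (SD, n = 3) in KO cells, below it. It was at least 1.31-fold above WT (coefficient 1.35, SE 0.13, adjusted p = 4.51e-05) and at least 1.33-fold above KO (adjusted p = 6.3e-05). The other Hoxa4 probe set, 1420226_x_at, read 3.46, 3.12, 3.19 and 3.05 in 10T1/2. It was below the median on every array, with a mean difference from WT of 0.26. Hoxa5 was at 6.06, 6.57, 6.85 and 6.67, above all MEF arrays, by 1.42 over WT (SE 0.15, 2.68-fold, adjusted p = 7.69e-05) and by 1.31 over KO (adjusted p = 0.000134). By 1448926_at it was at 7.0, 7.04, 7.58 and 7.45, and the mean difference from WT was 3.74. Hoxa7 was at 8.07, 7.88, 8.30 and 7.90, with KO cells between the other lines. It was higher than in WT by 3.01 (SE 0.19, 8.08-fold, adjusted p = 6.08e-06) and than in KO by 1.83 (SE 0.19, 3.55-fold, adjusted p = 8.35e-05).

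Among posterior genes, Hoxc9, a thoracic patterning gene, was at 6.01, 6.25, 6.06 and 5.97 in 10T1/2, at 4.81, 4.55 and 4.81 in WT and at 4.78, 4.64 and 5.01 in KO cells. The MEF lines overlapped, and 10T1/2 was above WT by 1.35 (SE 0.13, 2.55-fold, adjusted p = 4.01e-05) and above KO by 1.26 (adjusted p = 6.39e-05). Hoxb9, another thoracic gene and the only HoxB gene in any code, was at 4.38, 4.22, 3.94 and 4.0 in 10T1/2 and at 3.17, 3.16 and 3.17 in WT, at least 1.17-fold higher (0.97, SE 0.14, adjusted p = 0.000335). In KO cells it was at 3.17, 3.11 and 3.55, also below every 10T1/2 array (difference 0.86, adjusted p = 0.00068). Hoxa10 was at 4.50, 4.83, 4.97 and 5.05, above WT by 2.02 (SE 0.26, at least 1.90-fold, adjusted p = 0.000223). Against KO cells it differed by 0.09 (SE 0.26, adjusted p = 0.759). Hoxa9 was at 4.72, 5.13, 5.14 and 4.95, a difference of 0.12 from WT (SE 0.14, adjusted p = 0.466), while by 1455626_at it was at 3.01, 3.05, 3.05 and 3.13, below every MEF array.

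The HoxD pair ran the other way between 10T1/2 and KO MEFs. Hoxd8 was at 3.98, 3.82, 3.77 and 3.71 in 10T1/2, 22.4-fold below KO cells (difference -4.48, SE 0.16, adjusted p = 4.4e-07). Hoxd9 was at 3.79, 4.03, 4.06 and 3.99, which is 13.1-fold below KO cells (-3.72, SE 0.28, adjusted p = 1.37e-05) and overlapped WT cells (-0.29, adjusted p = 0.372). Both lay just above the array median in 10T1/2 by these probe sets. The other Hoxd8 probe set, 1433638_s_at, read 3.13, 2.76, 2.81 and 2.65 there, below the median, with a mean difference from WT of -1.34, and with the mean of the probe sets Hoxd8 was lower than in WT by 0.90 (coefficient -0.90, adjusted p = 0.000672). Hoxd8 was also lower than in WT (-0.46), with both lines just above the median. The other lower calls were small and lay near or below the median, for Hoxc5 (-0.38) and Hoxd3 (-0.37) against WT and for Hoxa11 (-0.40), Hoxa13 (-0.37), Hoxc5 (-0.43) and Hoxd3 (-0.79) against KO. The array medians themselves were lower in 10T1/2. After quantile normalization or centring on the medians, 0 Hox genes were lower than in WT and 2 were lower than in KO. Higher calls then numbered 11 and 12 against WT, with Hoxa13, Hoxb4 and Hoxc13 added by both scalings and Hoxa9 by centring, and 9 against KO, with Hoxc6 and Hoxc13 added by both, while all 8 and all 7 higher calls held under every alternative run.

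KO MEFs and 10T1/2 were both higher than WT MEFs for Hoxa3, Hoxa7 and Hoxa10, in comparisons that share the 3 WT arrays. Side by side, the differences from WT were 0.90 and 3.19 for Hoxa3, 1.19 and 3.01 for Hoxa7 and 1.92 and 2.02 for Hoxa10.

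Serum changed no Hox gene past the threshold in the MEFs. In the limma model, 0 of 12 tested Hox genes were called at 30 min and 0 at 90 min, with 2 and 1 at an unadjusted p under 0.05 and lowest adjusted p of 0.556 and 0.0878, while 0.251% and 13.5% of all genes were called. Under quantile normalization and without the filter the counts also stayed at 0. Single arrays carry no test, and a gene was counted here when the higher of the 2 arrays compared was above the median. In KO cells 3 of 10 such Hox genes were lower by at least 1 at 90 min than at 0 min, where 5.9% of 11163 genes were. The differences were -1.48 for Hoxd9, -1.41 for Hoxa3 and -1.20 for Hoxa10. Hoxa3 and Hoxa10 entered this 90 min count through the 0 min array alone, so their direction was partly set by the filter. Hoxa3 was already lower by at least 1 at 30 min (-1.11, 0.236% of genes). The size of the Hoxa3 falls rested on the chosen probe set. By 1452421_at it read 4.12, 4.01 and 3.93 in KO cells at 0, 30 and 90 min. In WT cells 0 of 7 Hox genes were lower by at least 1 at 30 min and 0 of 8 at 90 min, against 0.332% and 6.35% of genes. These 3 genes are among those higher in KO cells, and their 90 min KO array was their lowest KO array.

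**Figure D4:**
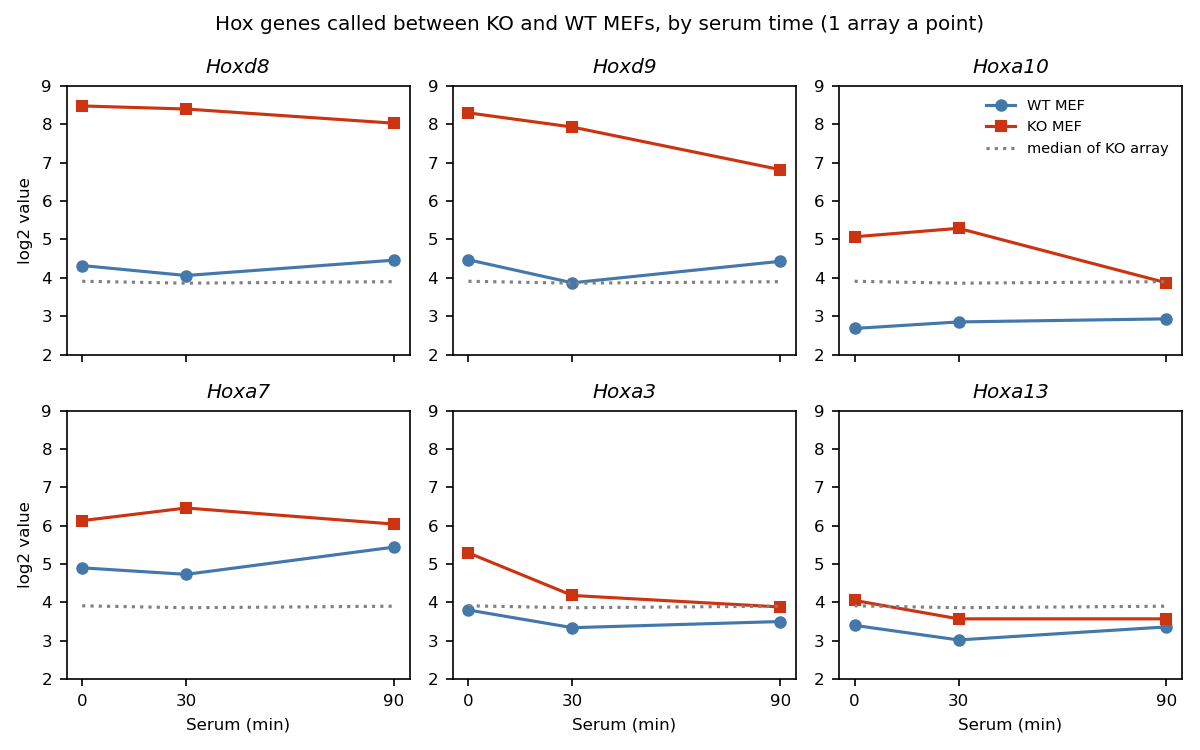
Log2 expression of the 6 Hox genes called between KO and WT at 0, 30 and 90 min of serum, with 1 array per point for WT and KO cells and a dotted line at the median of the KO arrays. By the chosen probe sets, Hoxd9, Hoxa3 and Hoxa10 are lower at 90 than at 0 min in KO cells. Hoxd8 stays between 8.03 and 8.48 there.

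Neither MAL nor knockdown of Med23 changed a Hox gene past the threshold in 10T1/2. For MAL, 0 of 15 tested Hox genes were called by limma (2 at an unadjusted p under 0.05) and 0.0643% of 12441 genes were, in a fit with 1 residual degree of freedom. Hoxa3 was lower with MAL by 0.90 on the log2 scale (coefficient -0.90, SE 0.21, adjusted p = 0.0906) and Hoxa4 by 0.66 (coefficient -0.66, adjusted p = 0.118), each lower in both MAL arrays than in both others. Hoxa3 passed after quantile normalization (-0.87, adjusted p = 0.0163) and Hoxa4 in the fit over all 10 arrays (adjusted p = 0.0379). By 1452421_at the MAL difference of Hoxa3 was smaller. It read 6.54 in the control, 5.91 with MAL, 6.0 with knockdown and 5.97 with both. For the knockdown, 0 of 15 were called (0 at an unadjusted p under 0.05, lowest adjusted p 0.179), as were 0.0% of all genes, of which 3972 had an unadjusted p under 0.05. Quantile normalization, the 10-array fit and the fit without a filter also called 0 Hox genes for the knockdown. Knockdown coefficients of the Hox genes ran from -0.46 for Hoxa2 to 0.44 for Hoxa5.

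The effect of Med23 loss on Hox genes was then compared between the cells. The KO coefficient in MEFs minus the knockdown coefficient in 10T1/2, tested over all 10 arrays, was past the threshold for 4 of 19 Hox genes, all 4 positive, while 13.7% of all genes were called in that direction. These were Hoxd8 (4.18), Hoxd9 (3.31), Hoxa10 (1.58) and Hoxa7 (1.06). The knockdown coefficients of the same genes were -0.16, 0.12, 0.34 and 0.12. The comparison sets a lost gene in 1 cell line against a knockdown in another, in which the Med23 coefficient was -1.47 (adjusted p = 0.069), and line, degree of loss and Med23 cannot be told apart in it.

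The partners and regulators of Hox genes were read from the same KO against WT fit. Of the TALE cofactor genes (Pbx, Meis and Pknox), 7 were tested, 4 were higher and 1 lower in KO cells, with a median coefficient of 0.72. Pknox2 rose from 4.63, 5.20 and 4.51 in WT to 7.06, 7.22 and 6.86 in KO cells (2.27, SE 0.14, adjusted p = 9.71e-05). Meis3 rose by 2.16 (adjusted p = 0.000136), Pbx3 by 1.26 (adjusted p = 0.000628) and Meis2 by 0.72 (adjusted p = 0.00769). Pknox1 was lower, with a coefficient of -0.58 (adjusted p = 0.0136). Meis1 was at -0.48 and did not pass (adjusted p = 0.0569).

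Of 27 Polycomb and Trithorax genes, 25 were tested, 6 were higher and 6 lower in KO cells, with a median of -0.07. The Polycomb gene Pcgf1 was at 4.72, 4.27 and 4.26 in WT and at 6.74, 6.68 and 5.33 in KO cells (1.83, SE 0.26, adjusted p = 0.00243). Ring1, the gene of a Polycomb ubiquitin ligase subunit, was higher by 1.03, and Men1, whose product works with Trithorax-type methyltransferases, by 0.85. Lower were Pcgf5 (-1.0), Phc2 (-0.99) and Mtf2 (-0.79), all 3 Polycomb genes. Ezh2, the histone methyltransferase of Polycomb, was at 0.02 (adjusted p = 0.904) and Kmt2a, a Trithorax-type methyltransferase, at -0.07 (adjusted p = 0.687). Neither passed the test.

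Of 21 genes of retinoic acid handling and Cdx factors, 10 were tested, 3 were higher and 4 lower, with a median of -0.29. Aldh1a1 and Rarb passed the filter through WT arrays alone and Cyp26a1 through KO arrays alone. Cyp26b1, which breaks down retinoic acid, was higher by 0.99, and the receptor genes Rxra and Rxrb by 0.77 and 0.55. Lower were Aldh1a1, an enzyme that makes retinoic acid (coefficient -1.40), the reductase gene Dhrs3 (-0.86), and the receptor genes Rarb (-0.77) and Rarg (-0.73).

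Other transcription factors that mark body position also differed between the MEF lines. Of 66 listed, 38 were tested, 19 were higher and 5 lower in KO cells, with a median of 0.65. The filter set part of this split, since 5 of the 38 (Zic1, Zic4, Lmx1b, Dlx5 and Osr2) passed through KO arrays alone and 6 (Tbx3, Lhx9, Emx2, Dlx2, Dlx3 and Otx1) through WT arrays alone. Zic1, a gene of the dorsal neural tube and somites, was at 3.15, 2.85 and 2.72 in WT and at 10.97, 10.43 and 9.11 in KO cells, at least 76.6-fold higher (adjusted p = 1.69e-05). The craniofacial gene Alx1 was at least 17.0-fold higher and Msx2, a gene of limb and skull mesenchyme, at least 12.1-fold higher. Irx2, a patterning gene of the Iroquois family, was at 8.36, 8.41 and 8.37 in WT and at 6.02, 5.92 and 6.19 in KO cells, 5.05-fold lower (adjusted p = 6.6e-05). The limb and gonad gene Lhx9 was at least 2.44-fold lower and the limb and heart gene Tbx3 at least 2.22-fold lower. Tbx3 was at 3.71, 4.77 and 6.43 in WT and at 2.89, 3.19 and 3.23 in KO cells at 0, 30 and 90 min. At 0 min it was below the array median in both lines. For all 4 lists the median over all genes tested was -0.02, and 21.2% of genes were higher and 20.8% lower.

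**Figure D5:**
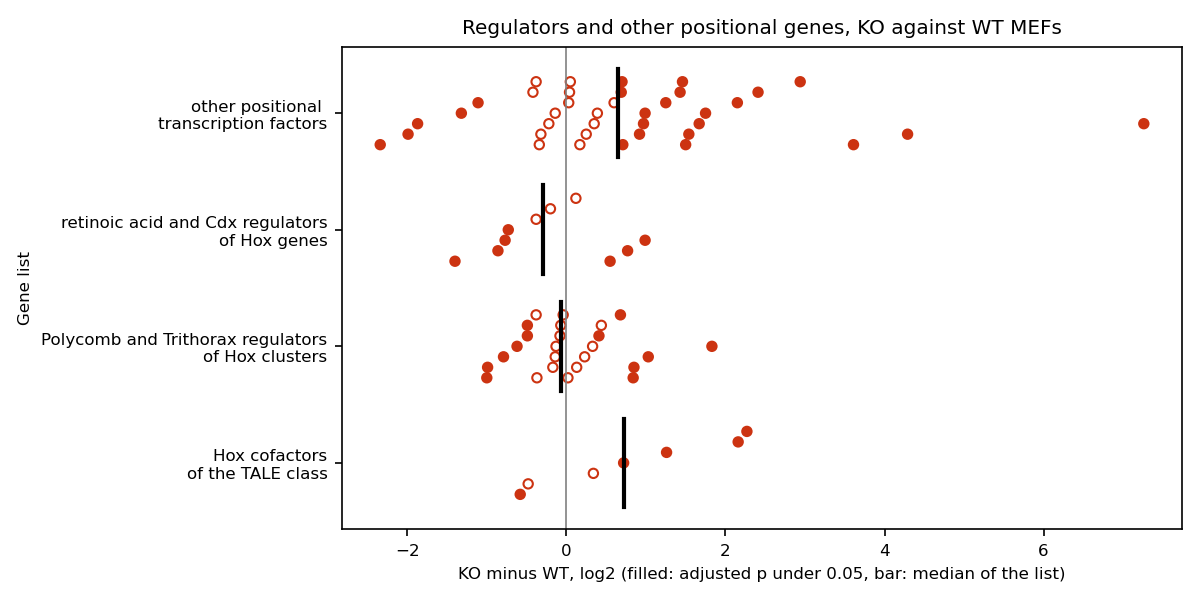
KO minus WT coefficients (log2) of the tested genes in the lists of TALE cofactors, Polycomb and Trithorax regulators, retinoic acid and Cdx genes and other positional transcription factors, with a point per gene (filled where the adjusted p is under 0.05) and a bar at each list's median. The medians are 0.72, -0.07, -0.29 and 0.65, against -0.02 over all genes tested, and Zic1 (7.26) lies farthest out.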

How the data were processed

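The authors deposited log2 expression for 45101 probe sets on each of 10 arrays. RMA and MAS5 are named per the submitters' processing notes, without roles or versions, and the sources used here do not give whether MEF and 10T1/2 arrays were normalized together. Symbols came from the platform annotation, updated through Entrez identifiers to the RefSeq table of GRCm38.p6 (34754 of 34958 probe sets with 1 symbol matched). Another 932 carried several symbols and were left out, and 9211 were unnamed.

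Groups came from the sample labels. limma 3.58.1 (lmFit, eBayes) in R 4.3.3 fitted additive models to the 6 MEF arrays (genotype and serum), the 4 arrays of 10T1/2 (MAL and knockdown) and all 10 arrays (line, serum, MAL and knockdown), with 2, 1 and 3 residual degrees of freedom. On simulated data the MEF, 10T1/2 and 10-array fits recovered 98.5%, 86.6% and 94.0% of planted changes of 1 log2 unit. They made 11, 47 and 9 false calls. The simulated noise was independent between arrays and took its size from each fit's own variance estimates. It held no spread between cultures or lines, so these shares do not measure recovery on the real arrays. Genes entered a fit when their highest value passed the median of all probe sets over its arrays (3.90, 3.67 and 3.81). p-values were two-sided and adjusted (Benjamini-Hochberg) over all genes tested, with a threshold of 0.05. They rest on what the additive models left over among arrays of different conditions. No condition had a second array, so spread between replicate cultures, or between lines of a genotype, was not measured. A fold printed as "at least" was taken after raising each level below its array median to that median. Precision is limited by the number of arrays.

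The members and lists were chosen with earlier results of these data known. All 33 members are accounted for. Of the other lists, the 3 largest coefficients in each direction among called genes with 1 sign at every serum time were named, with Meis1, Meis2, Ezh2 and Kmt2a. Rarg was named after its value was seen. Alternatives changed normalization, filter, probe set, variance prior, model and arrays.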

Additional observations from a re-analysis of the deposited data

Results flagged for a closer look

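The KO coefficient in MEFs and the knockdown coefficient in 10T1/2 differed for 4 Hox genes, by a test of the difference itself (limma over all 10 arrays). Line, degree of loss and Med23 cannot be told apart in it. The difference was 4.18 for Hoxd8 (SE 0.27, adjusted p = 6.13e-05), 3.31 for Hoxd9 (SE 0.47, adjusted p = 0.0021), 1.58 for Hoxa10 (SE 0.44, adjusted p = 0.0314) and 1.06 for Hoxa7 (SE 0.33, adjusted p = 0.0449). All 4 were higher in KO than in WT cells at each of the 3 serum times. No group held more than 1 array, so single samples far from their group could not be looked for.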

How the results depend on the processing

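No direction of a called Hox gene reversed under any alternative run. Hoxd8 and Hoxd9 were called between KO and WT in every run. The count of genes higher in KO was 6 as reported and 2 to 6 when 1 serum time was left out, with 2 without the 30 min arrays, and it was 4 without the serum term. For 10T1/2 against WT, the count of lower genes was 3 as reported, 0 after quantile normalization, centring or leaving out the 2 knockdown arrays, 5 without the filter and 0 to 2 when 1 array was left out. For 10T1/2 against KO it was 6, then 2 after quantile normalization, centring or leaving out the 2 knockdown arrays, 9 without the filter, and 3 to 6 with 1 array left out. Higher calls against WT rose from 8 to 11 after quantile normalization and 12 after centring, and against KO from 7 to 9 under both. For MAL, 1 gene was lower after quantile normalization and 1 in the 10-array fit, against 0. At the median plus 1, the code held 1 gene in WT and 6 in 10T1/2, and with any probe set 7 in KO. For the difference of the KO and knockdown effects, Hoxa10 fell short with the mean of its probe sets (0.74, adjusted p = 0.0673) and Hoxa7 without the filter (adjusted p = 0.0542), alternatives chosen after seeing the data. The causes were not tested. No paired analysis was possible because replicate numbers are lacking, with 1 array a condition, beyond the serum times that both genotypes share and that the MEF model already holds as a term. Levels near the array median limit the low genes.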

Other observations

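Transcripts and genes beside the Hox clusters were read as well. Hoxd3os1, an antisense transcript at the front of HoxD, was at 3.41, 3.24 and 3.39 in WT cells, at 5.70, 3.82 and 4.08 in KO cells at 0, 30 and 90 min, and between 2.23 and 2.65 in 10T1/2 by probe set 1460056_at, so all KO arrays were above all WT arrays. Its other probe set, 1430263_at, stayed between 2.56 and 3.24 on all arrays. Hoxb5os was at 4.34, 4.24 and 4.92 in WT, at 4.22, 4.24 and 4.47 in KO and between 3.61 and 3.82 in 10T1/2.

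Beyond the Hoxd13 end of HoxD, the KO minus WT coefficient was -0.04 for Evx2, a homeobox gene of the same domain (adjusted p = 0.845), 0.48 for Lnpk (adjusted p = 0.0319) and -0.15 for Atp5g3 (adjusted p = 0.389). Beyond the other end it was 0.18 for Mtx2 (adjusted p = 0.266), -0.28 for Nfe2l2 (adjusted p = 0.171) and 0.91 for Agps (adjusted p = 0.00237). Hoxd8 and Hoxd9, between them, differed by 4.02 and 3.43, while Hoxd3, Hoxd10, Hoxd11 and Hoxd13 stayed at or below the median on all arrays. Beside HoxA, Skap2 and Hibadh were higher in KO cells by 0.60 (adjusted p = 0.0104) and 0.59 (adjusted p = 0.0146). Lower in KO cells were Snx11 beside HoxB (-0.64, adjusted p = 0.0187) and, beside HoxC, Cbx5 (-1.02, adjusted p = 0.00142), Smug1 (-0.92, adjusted p = 0.00632) and Calcoco1 (-0.72, adjusted p = 0.00591). Of all genes tested, 42.0% were called in either direction.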
